A study of Mus musculus with 22 samples.

Results

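Adding the MEK inhibitor PD (PD0325901) to medium that already held SB (SB431542) was examined across all detected genes in 2 mouse embryonic stem cell lines, B4 and C17. SB blocks the receptor kinases through which Activin, Nodal and TGF-beta act, and R2i is the name of the medium with both inhibitors. The 4 arrays were chosen by title: B4 and C17 in R2i (PD and SB) against B4 and C17 in SB alone, each line being its own pair. They are 4 of the 22 arrays of the series, and the B4 and C17 arrays in PD alone (2 arrays) are given beside them. The tested set was 11003 genes.

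B4 is a line of C57BL/6 strain and C17 a line of BALB/c strain, both labelled as embryonic stem cells and measured as total RNA on Illumina bead arrays. All groups carried an inhibitor, and no array of either line without one is analysed here. The growth notes in the labels describe N2B27 medium with LIF, and derivation in PD and SB, for lines B18 and B20. For B4 and C17 they state neither the medium of derivation nor the number of passages. Each medium has 1 array per line, so the line was the only replicate, and nothing says that arrays came from separate cultures. P-values measure only the spread between these arrays.

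In embryonic stem cells, FGF4 made by the cells signals through FGF receptors, RAS, RAF, MEK and ERK. Phosphorylated ERK switches on immediate early genes such as Egr1, ETS factors such as Etv4, and its own inhibitors: the DUSP phosphatases, which dephosphorylate ERK, and the Sprouty and Spred proteins, which act upstream on RAS and RAF. ERK activity primes these cells for lineage commitment, and blocking MEK is widely used to hold them in the naive state. SB acts on the other arm, the SMAD2/3 pathway, whose direct targets include the Nodal antagonists Lefty1 and Lefty2.

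On each array 13591 to 14366 of 45281 probes were detected (30.0% to 31.7%), and signal was dim, with upper quartiles only 1.32 to 1.38 times the negative control mean. Levels below are normalised log2 intensities, so a difference of 1 is 2-fold, and levels of different genes are not compared. All 6 arrays lay on 1 chip. The media took the same order of positions in both lines, so medium and position cannot be told apart. The cell line field of the C17 PD and C17 SB arrays names B4, while title, source name and strain name C17. The titles were used, and the differences between C17 and B4 correlated across genes at 0.65 between R2i and SB. Markers of embryonic stem cells were detected on all 6 arrays. Pou5f1 (Oct4) lay between 11.79 and 11.98 and Esrrb between 11.93 and 12.24.

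The B4 R2i array stood apart in the Nodal antagonist genes. Lefty1 was at 7.68 in B4 and 4.41 in C17 in R2i, against 10.36 and 10.80 in PD alone and 4.58 and 4.42 in SB alone. Lefty2 was at 7.47 in B4 and 4.65 in C17 in R2i, 9.95 and 10.67 in PD alone, and 4.39 and 4.35 in SB alone. Both were detected in B4 R2i, not in C17 R2i and not on either SB array, although R2i and SB media both hold SB. On the arrays of B18 and B20, no R2i array of 6 detected the same Lefty1 and Lefty2 probes, while all 6 PD arrays did. Results are therefore also given without the B4 R2i array, where they rest on C17 R2i against both SB arrays.

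A gene passed the test at a Benjamini-Hochberg adjusted p below 0.05 in limma, in a fit of medium and line over the 6 arrays. A 2-fold call also needed a log2 change of at least 1 either way. Of 11003 genes, 242 passed in R2i against SB (2.20%), 112 higher (1.02%) and 130 lower (1.18%). All 242 had the same direction in both lines. The fit favours genes that move alike in both lines, so this follows largely from the selection and is no separate replication. In all, 92 genes had a 2-fold call, of which 45 were higher (0.409%) and 47 lower (0.427%). In 80 of the 92 the R2i and SB arrays did not overlap. Selection for a 2-fold change and a low p favours such separation, so the count is no further support. The median change over all genes was 0.00. Before adjustment, 1888 of the 11003 genes had a limma p below 0.05, and list counts at that threshold below stand beside this share. Counts of list members that rose or fell stand beside the shares of 1.02% and 1.18%, and no list was tested as a set. Which genes passed leaned on single arrays: 150 passed without B4 R2i, 46 without C17 R2i, 565 without B4 SB, 80 without C17 SB and 408 without either PD array. Without the line term in the fit 0 genes passed in limma, and 434 had an unadjusted p below 0.05.

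Genes of the MEK-ERK response made up the head of the falls. The list of ERK feedback genes, Etv1, Etv4 and Etv5, immediate early genes and other ERK or RAS targets held 87 genes, of which 54 were measured. In R2i 10 of the 54 fell, 1 rose and 43 did not pass, beside 1.18% of all genes falling and 1.02% rising. Before adjustment, 25 of the 54 had a limma p below 0.05, beside 1888 of all 11003 genes. Of these 25, 19 were lower and the rest higher. The median change of the 54 was -0.09, so the middle of the list lay near 0, with changes of -3.45 to 0.69. Without B4 R2i 7 fell and 0 rose, without C17 R2i 5 fell and without C17 SB 6 fell. PD alone against the same SB arrays had 11 of the 54 lower and 3 higher, beside 2.45% and 2.78% of all genes.

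Egr1, a zinc finger transcription factor that active ERK induces, had the largest fall of all 11003 genes. It stood at 5.34 in B4 and 6.85 in C17 in R2i, 5.02 and 4.81 in PD alone, and 9.55 on both SB arrays. The log2 change was -3.45 (SE 0.33, limma adjusted p = 0.0027), and -2.65 without B4 R2i (adjusted p = 0.00059). The call was kept with any 1 array left out and lost with trended, robust moderation of the variances (adjusted p = 0.058). Both R2i arrays lay far below both SB arrays, with B4 R2i lower than C17 R2i. Fos, the other classical immediate early gene, was near background everywhere, at 4.78 and 5.17 in R2i, 4.99 and 4.94 in PD alone and 5.40 and 5.20 in SB alone (log2 change -0.32, adjusted p = 0.36). Among 15 measured immediate early genes Egr1 was the only one that passed. Myc, a further target, was detected on no array.

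Dusp4, Dusp6 and Dusp1, genes of phosphatases of MAP kinases, fell. Dusp4, whose product acts on ERK in the nucleus, was at 6.47 in B4 and 7.04 in C17 in R2i, 5.79 and 6.11 in PD alone, and 8.78 and 9.50 in SB alone. Its change of -2.38 (SE 0.15) had the lowest adjusted p of the comparison (limma adjusted p = 0.00025), and 3 probes of the gene ranged from -2.65 to -1.82. Dusp6, the cytoplasmic ERK phosphatase, was at 9.15 and 9.19 in R2i, 8.85 and 8.48 in PD alone, and 10.56 and 11.05 in SB alone (-1.63, SE 0.19, adjusted p = 0.0057). The R2i and SB arrays did not overlap for either gene, and both calls were kept with any 1 of the 6 arrays left out. Dusp1, which acts on several MAP kinases, moved less: 9.53 and 10.75 in R2i, 9.83 and 10.84 in PD alone, 10.44 and 11.30 in SB alone (-0.73, SE 0.15, adjusted p = 0.037). For Dusp1 the line difference was wider than the change, so the groups overlapped, and the call was lost without any 1 of the R2i or SB arrays (adjusted p up to 0.16).

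Spry4 and Spred1, whose products act upstream of ERK, fell too. Spry4, a Sprouty gene, was at 5.34 in B4 and 5.01 in C17 in R2i, 5.09 and 4.91 in PD alone, and 6.55 and 7.13 in SB alone (-1.67, SE 0.21, limma adjusted p = 0.0063). It was detected on 1 of 2 R2i arrays and 2 of 2 SB arrays, so its R2i level lay at the background. Spred1 was at 6.72 and 7.30 in R2i, 6.69 and 6.60 in PD alone, and 8.15 and 8.62 in SB alone (-1.37, SE 0.18, adjusted p = 0.0073). Both calls were kept with any 1 array left out. Spry2 was detected on no array. Of the 14 measured feedback genes 5 fell, 8 did not pass and 1 rose: Lrig3, which encodes a membrane protein of a family that restrains growth factor receptors and was named after its values were seen. Lrig3 was at 9.64 and 9.19 in R2i, 9.97 and 9.54 in PD alone, and 9.11 and 8.34 in SB alone (0.69, SE 0.15, adjusted p = 0.048), and did not pass without B4 R2i (adjusted p = 0.093).

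Of 14 measured ETS family genes 2 fell and 1 rose. Etv4 (Pea3), an ERK-induced factor, was at 5.64 in B4 and 5.30 in C17 in R2i, 5.63 and 4.69 in PD alone, and 7.25 and 8.46 in SB alone (-2.38, SE 0.38, limma adjusted p = 0.013). Elk3, a ternary complex factor that ERK phosphorylates, was at 6.63 and 6.87 in R2i, 6.06 and 6.46 in PD alone, and 7.50 and 8.08 in SB alone (-1.04, SE 0.15, adjusted p = 0.0092). Neither gene's R2i arrays overlapped its SB arrays, and both calls were lost without C17 R2i (adjusted p = 0.080 for Etv4 and 0.068 for Elk3). That of Etv4 was also lost without background correction (0.072) and with trended, robust moderation (0.22). Etv5, the close relative of Etv4, did not pass: 8.56 and 8.41 in R2i, 8.41 and 8.09 in PD alone, 8.26 and 8.43 in SB alone (0.14, SE 0.16, adjusted p = 0.72). Spic, an ETS factor of the PU.1 subfamily, rose and is given with the rises.

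Other ERK and RAS targets gave 3 falls among 22 measured. Phlda1, a pleckstrin homology-like gene used as a readout of MEK activity, was at 5.34 in B4 and 5.30 in C17 in R2i, 5.54 and 4.87 in PD alone, and 6.37 and 7.14 in SB alone (-1.43, SE 0.27, limma adjusted p = 0.026). Pmaip1 (Noxa), a BH3-only activator of apoptosis, was at 6.01 and 5.57 in R2i, 7.06 and 6.63 in PD alone, and 6.84 and 7.30 in SB alone (-1.28, SE 0.21, adjusted p = 0.017). For Pmaip1 PD alone was not shown to differ from SB alone (-0.23, adjusted p = 0.66), and the difference between R2i and PD alone did not pass (-1.06, adjusted p = 0.12). Bcl2l11 (Bim), another BH3-only gene, was at 6.53 and 6.45 in R2i, 6.57 and 6.08 in PD alone, and 7.30 and 7.43 in SB alone (-0.88, SE 0.17, adjusted p = 0.031). No R2i array of these genes reached an SB array. Phlda1 and Bcl2l11 lost the call without B4 R2i, C17 R2i or C17 SB, and Pmaip1 without C17 R2i or C17 SB (adjusted p up to 0.19). Of 17 BCL2 family genes measured, Pmaip1 and Bcl2l11 were the only 2 that passed. Ccnd1, a cyclin gene downstream of ERK in many cells, was at 9.91 and 10.36 in R2i and 9.86 and 9.99 in SB alone (0.21, adjusted p = 0.54).

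**Figure D1:**
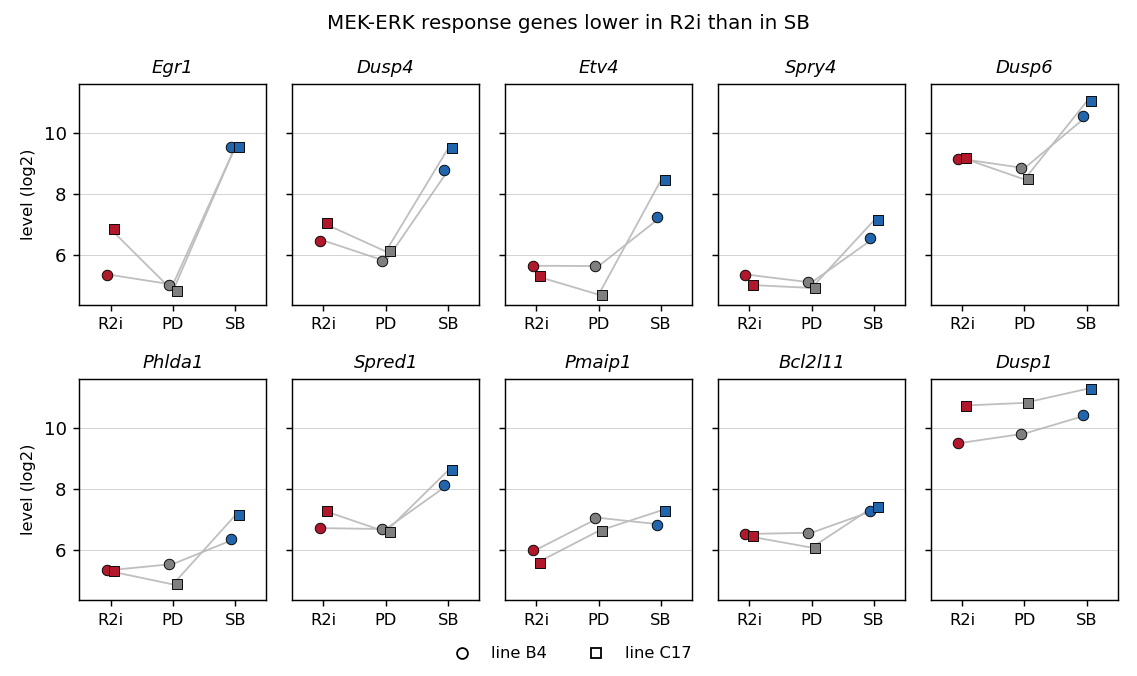
Level (log2, vertical axis) of the 10 MEK-ERK response genes that fell, on each array, with R2i left, PD alone in the middle and SB alone right. Circles are line B4, squares line C17, and grey lines join the arrays of 1 line. For Egr1, the R2i arrays sit at 5.34 and 6.85 and the SB arrays at 9.55. For Dusp1 the lines lie apart in every medium.

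The stretches upstream of the falling MEK-ERK genes are shown because these genes moved together. ERK signalling can act through ETS and CREB family factors, and whether it acts on these promoters was not tested. RefSeq promoter entries (GRCm38.p6) existed for 4 of the 10 genes, with 5 starts, and the 250 bases before the start are printed on the gene's strand. Capitals mark matches to any of 4 motifs searched on both strands: the ETS core CCGGAA, the AP-1 site TGANTCA, the cAMP response element TGACGTCA and the CArG box of serum response factor. The windows are chr10:99262981-99263230, plus strand, for Dusp6, and chr2:117120821-117121070, plus strand, for Spred1. For Bcl2l11 the window is chr2:128125788-128126037, plus strand, upstream of the first of 2 starts, and for Dusp1 chr17:26508473-26508722, minus strand.
Dusp6: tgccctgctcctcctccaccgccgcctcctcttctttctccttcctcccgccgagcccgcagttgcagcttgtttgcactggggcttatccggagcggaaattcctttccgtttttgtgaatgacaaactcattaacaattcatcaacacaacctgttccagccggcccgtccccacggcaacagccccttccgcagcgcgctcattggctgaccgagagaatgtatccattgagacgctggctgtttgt
Spred1: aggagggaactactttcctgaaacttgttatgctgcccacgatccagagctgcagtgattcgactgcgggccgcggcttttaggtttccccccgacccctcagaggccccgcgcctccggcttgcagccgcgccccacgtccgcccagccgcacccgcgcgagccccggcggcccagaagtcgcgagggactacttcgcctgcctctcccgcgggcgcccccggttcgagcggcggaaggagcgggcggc
Bcl2l11: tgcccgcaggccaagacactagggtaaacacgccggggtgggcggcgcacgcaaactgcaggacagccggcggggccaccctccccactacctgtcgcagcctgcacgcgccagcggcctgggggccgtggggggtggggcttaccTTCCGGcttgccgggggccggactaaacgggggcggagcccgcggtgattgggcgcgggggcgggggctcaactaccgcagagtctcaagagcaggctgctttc
Dusp1: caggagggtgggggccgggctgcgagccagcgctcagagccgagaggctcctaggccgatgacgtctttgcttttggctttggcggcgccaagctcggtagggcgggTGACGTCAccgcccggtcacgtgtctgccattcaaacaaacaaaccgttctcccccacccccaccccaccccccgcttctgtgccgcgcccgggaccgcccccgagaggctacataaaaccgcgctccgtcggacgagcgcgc

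Bcl2l11 held 1 ETS core, on the reverse strand, whose first base lay 104 bases before the start. Dusp1 held 1 cAMP response element, 143 bases before the start. The windows of Dusp6 and Spred1 and the second start of Bcl2l11 held none of the 4 motifs, and no 2 matches overlapped. Over the starts of all tested genes with an entry (9133), 23.0% held the ETS core, 4.01% the AP-1 site, 2.66% the cAMP response element and 1.18% the CArG box. Over the 37 starts of genes with a 2-fold fall, 2 held the ETS core (5.41%), 2 the AP-1 site (5.41%) and 0 either of the others. Over the 32 starts of genes with a 2-fold rise, 3 held the ETS core (9.38%), 3 the AP-1 site (9.38%), 2 the cAMP response element (6.25%) and 0 the CArG box. A match is a stretch of letters in this window and was not tested as a binding site.

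The pathway itself changed little at the transcript level. Of 25 measured genes encoding RAS, RAF, MEK, ERK and their adaptors, 1 rose, 0 fell and the median change was 0.00. The riser was Mras, a RAS-like GTPase gene, at 7.07 in B4 and 6.88 in C17 in R2i, 7.45 and 6.92 in PD alone, and 6.19 and 5.60 in SB alone (1.08, SE 0.15, limma adjusted p = 0.0093; 0.068 without C17 R2i). Among 15 measured FGF and receptor genes 0 passed the adjusted p in limma and 5 had an unadjusted p below 0.05, with changes of -0.80 to 1.18. The highest, the receptor gene Fgfr2, was named after its values were seen: it missed the threshold (adjusted p = 0.059) and passed without B4 R2i (adjusted p = 0.042). Fgf4, the main FGF of these cells, was at 6.26 and 6.68 in R2i, 6.48 and 6.64 in PD alone, and 5.89 and 6.22 in SB alone (0.41, SE 0.14, adjusted p = 0.18). Its R2i arrays lay above its SB arrays in both lines by less than the test could call. Fgfr1 was detected on no array.

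Beyond the MEK-ERK list, the largest falls were those of Slc40a1 and Snai3. Slc40a1 encodes ferroportin, the iron exporter. It was at 5.0 in B4 and 5.10 in C17 in R2i, 4.78 and 4.46 in PD alone, and 7.24 and 7.40 in SB alone. It was not detected in R2i or PD alone, so it was at least 4.72-fold lower in R2i (limma adjusted p = 0.00036). Snai3, a Snail family zinc finger gene, was at 6.77 and 7.09 in R2i, 6.84 and 6.80 in PD alone, and 8.43 and 9.08 in SB alone (-1.83, SE 0.18, adjusted p = 0.0027). Both genes were separated from SB on every R2i array, with calls kept whichever array was left out. The nucleoside transporter gene Slc29a1 was at 8.49 and 8.85 in R2i, 9.33 and 9.12 in PD alone, and 9.67 and 10.41 in SB alone (-1.37, SE 0.20, adjusted p = 0.011; adjusted p = 0.055 without C17 R2i).

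Ap1m2, an epithelial subunit of the clathrin adaptor, was at 5.56 in B4 and 6.56 in C17 in R2i, 5.36 and 6.10 in PD alone, and 7.03 and 8.15 in SB alone (-1.53, SE 0.15, limma adjusted p = 0.0027). Gpnmb, a transmembrane glycoprotein gene, was at 6.03 and 6.34 in R2i, 5.88 and 5.95 in PD alone, and 7.87 and 7.47 in SB alone (-1.49, SE 0.18, adjusted p = 0.0057). Rab15, a small GTPase gene of endosomes, was at 7.02 and 7.82 in R2i, 6.89 and 7.20 in PD alone, and 8.32 and 9.20 in SB alone (-1.34, SE 0.17, adjusted p = 0.0063). Each of the 3 fell by more than 1 log2 unit in both lines, and the calls were kept with any 1 array left out. Grhl2, a transcription factor of epithelia, was at 5.97 and 5.17 in R2i, 6.08 and 4.57 in PD alone, and 7.14 and 6.73 in SB alone (-1.36, SE 0.22, adjusted p = 0.016). The tight junction gene Cldn6 was at 7.59 and 8.89 in R2i, 7.64 and 8.37 in PD alone, and 8.62 and 9.69 in SB alone (-0.92, SE 0.16, adjusted p = 0.023). Neither call was kept without B4 R2i (adjusted p = 0.066 for Grhl2 and 0.12 for Cldn6) or without C17 SB (0.067 and 0.087), and that of Grhl2 was also lost without C17 R2i (0.068). Of 20 epithelial and mesenchymal markers measured, Grhl2 and Cldn6 fell, the intermediate filament gene Vim rose and 17 did not pass (median -0.30).

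Gpx2, a glutathione peroxidase gene, was at 8.41 in B4 and 8.0 in C17 in R2i, 7.75 and 7.13 in PD alone, and 9.66 and 9.57 in SB alone (-1.41, SE 0.16, limma adjusted p = 0.0042). It was the only one of 24 glutathione, metallothionein and redox genes that passed, and its call was kept with any 1 array left out. Among 17 keratin and S100 family genes 3 fell and 1 rose. The calcium-binding gene S100a6 was at 8.73 and 9.05 in R2i, 8.39 and 8.36 in PD alone, and 9.74 and 10.61 in SB alone (-1.28, SE 0.20, adjusted p = 0.012). S100a1 was at 5.94 and 5.89 in R2i, 6.57 and 6.91 in PD alone, and 6.83 and 7.19 in SB alone (-1.09, SE 0.15, adjusted p = 0.0092). Groups did not overlap for either, and both calls were lost without C17 R2i (adjusted p = 0.068 for each), that of S100a6 also without C17 SB (0.055). Krt7, a keratin gene that was not detected in R2i, was at least 1.38-fold lower (adjusted p = 0.049). Anxa2, an annexin that pairs with an S100 protein, rose: 11.05 and 10.87 in R2i, 10.63 and 10.20 in PD alone, 10.50 and 9.49 in SB alone (0.97, SE 0.19, adjusted p = 0.035). Krt7 lost its call without any 1 R2i or SB array, and Anxa2 without C17 R2i or C17 SB (adjusted p up to 0.21).

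Metabolic and stress genes gave few calls. Pdk1, a kinase that restrains pyruvate dehydrogenase, was at 8.09 in B4 and 8.57 in C17 in R2i, 8.18 and 8.36 in PD alone, and 8.76 and 10.02 in SB alone (-1.06, SE 0.22, limma adjusted p = 0.042). Ndrg1, a hypoxia-induced gene, went the other way: 8.20 and 7.63 in R2i, 7.50 and 6.95 in PD alone, 7.52 and 6.30 in SB alone (1.01, SE 0.18, adjusted p = 0.024). These were the 2 genes that passed among 21 of glycolysis and hypoxia. Of 27 measured genes of the ATF4 stress response, 2 fell and 0 rose (median -0.24). Ddit3 (Chop) was at 7.02 and 6.91 in R2i, 6.79 and 6.34 in PD alone, and 7.67 and 8.11 in SB alone (-0.93, SE 0.20, adjusted p = 0.044), and Cebpb changed by -0.70 (SE 0.15, adjusted p = 0.045). All 4 calls were lost without C17 R2i or C17 SB, and those of Pdk1, Ddit3 and Cebpb also without B4 R2i (adjusted p up to 0.26). Cholesterol synthesis (22 measured), cell cycle (33) and ribosome biogenesis and MYC target genes (41) had 0 genes past the adjusted p in limma, with medians of 0.19, 0.14 and -0.05. At an unadjusted p below 0.05 they had 6, 3 and 5, beside 1888 of all 11003 genes. At their extremes, cell cycle genes changed by -0.35 to 0.69 and ribosome biogenesis genes by -0.47 to 0.45.

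The largest rise was that of Calcoco2, which encodes the autophagy receptor NDP52. It was at 10.73 in B4 and 9.79 in C17 in R2i, 9.80 and 9.70 in PD alone, and 9.01 and 6.41 in SB alone (2.55, SE 0.42, limma adjusted p = 0.017). A second entry under the older name Ndp52 gave 2.27 (SE 0.32, adjusted p = 0.009). The C17 SB array was far lower than the B4 SB array, and the rise was 1.72 in B4 and 3.38 in C17. The call was lost without C17 R2i (adjusted p = 0.092) and with trended, robust moderation (0.35). Cdhr1, a photoreceptor cadherin gene, was at 7.83 and 6.93 in R2i, 7.76 and 6.88 in PD alone, and 6.30 and 4.55 in SB alone (1.96, SE 0.21, adjusted p = 0.0042). Its R2i arrays both lay above both SB arrays, and the call was kept with any 1 array left out. C17 SB did not detect Cdhr1, so that array gives its level at the background, as it does for Gsc, Osr2, Ncam1, Ccno, Dio3, Gprc5a and Apcdd1 below.

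Developmental transcription factors stood among the other large rises. Gsc (goosecoid), a homeobox gene of the organizer, was at 7.18 in B4 and 6.62 in C17 in R2i, 6.98 and 6.44 in PD alone, and 5.89 and 4.68 in SB alone (1.61, SE 0.18, limma adjusted p = 0.0042). Gli2, a mediator of Hedgehog signalling, was at 8.29 and 7.80 in R2i, 8.65 and 8.65 in PD alone, and 6.95 and 6.26 in SB alone (1.44, SE 0.18, adjusted p = 0.0063). Osr2, a zinc finger gene of limb and palate, was at 7.39 and 6.53 in R2i, 6.92 and 6.08 in PD alone, and 6.20 and 4.92 in SB alone (1.40, SE 0.16, adjusted p = 0.0042). These 3 genes were higher on both R2i arrays than on both SB arrays, and kept the call with any 1 array left out. The second probe of Gli2 gave 0.48. Spic was at 7.94 and 7.69 in R2i, 7.19 and 6.28 in PD alone, and 7.17 and 5.21 in SB alone (1.62, SE 0.30, adjusted p = 0.027). For Spic the second probe gave 0.65, and the call was lost without C17 R2i or C17 SB (adjusted p up to 0.14).

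Dpysl4, Ncam1 and Rgcc rose as well. Dpysl4, of the collapsin response family, was at 7.65 in B4 and 7.10 in C17 in R2i, 8.47 and 8.26 in PD alone, and 6.12 and 5.43 in SB alone (1.60, SE 0.16, limma adjusted p = 0.0027). Ncam1, the neural cell adhesion molecule gene, was at 8.28 and 7.04 in R2i, 8.30 and 7.37 in PD alone, and 7.07 and 5.05 in SB alone (1.60, SE 0.22, adjusted p = 0.009). Those were 2 of 10 neural ectoderm markers measured, beside 1.02% of all genes rising, with 8 not passing and 0 falling. The median of the 10 was 0.56 against 0.00 for all genes. Before adjustment all 10 had a limma p below 0.05, beside 1888 of all 11003 genes. Of the 10 changes 9 were above 0 and 1 was below. The neuroectoderm regulators Pax6 and Sox1 were detected on too few arrays to be tested. Rgcc, a cell cycle regulator gene, was at 9.42 and 9.08 in R2i, 9.20 and 9.50 in PD alone, and 8.07 and 7.61 in SB alone (1.41, SE 0.19, adjusted p = 0.0076). Dpysl4 and Rgcc kept the call whichever array was left out, and Ncam1, whose groups overlapped between the lines, lost it without C17 R2i (adjusted p = 0.061).

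The remaining large rises had log2 changes of 1.39 to 1.69. Ccno, which encodes cyclin O of multiciliated cells, was at 6.86 in B4 and 7.03 in C17 in R2i, 6.51 and 6.19 in PD alone, and 5.86 and 4.67 in SB alone (1.69, SE 0.26, limma adjusted p = 0.011). Dio3, an enzyme gene that inactivates thyroid hormone, was at 6.77 and 6.86 in R2i, 6.57 and 7.34 in PD alone, and 5.45 and 4.94 in SB alone (1.62, SE 0.24, adjusted p = 0.011). Rec114, a factor of meiotic recombination, was at 9.74 and 9.61 in R2i, 9.98 and 10.25 in PD alone, and 8.51 and 7.88 in SB alone (1.48, SE 0.20, adjusted p = 0.0076). In all 3 the R2i arrays lay above the SB arrays, and all 3 lost the call without C17 R2i (adjusted p = 0.068, 0.061 and 0.052). The receptor gene Gprc5a changed by 1.45 (SE 0.19, adjusted p = 0.0074) and a second entry under the older name Rai3 by 1.02. The steroid and bile acid transporter gene Slc51a was at 7.69 and 7.55 in R2i, 7.44 and 7.07 in PD alone, and 7.10 and 5.36 in SB alone (1.39, SE 0.31, adjusted p = 0.049). Gprc5a lost the call without C17 R2i (adjusted p = 0.054) and Slc51a without C17 R2i or C17 SB (up to 0.25).

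**Figure D2:**
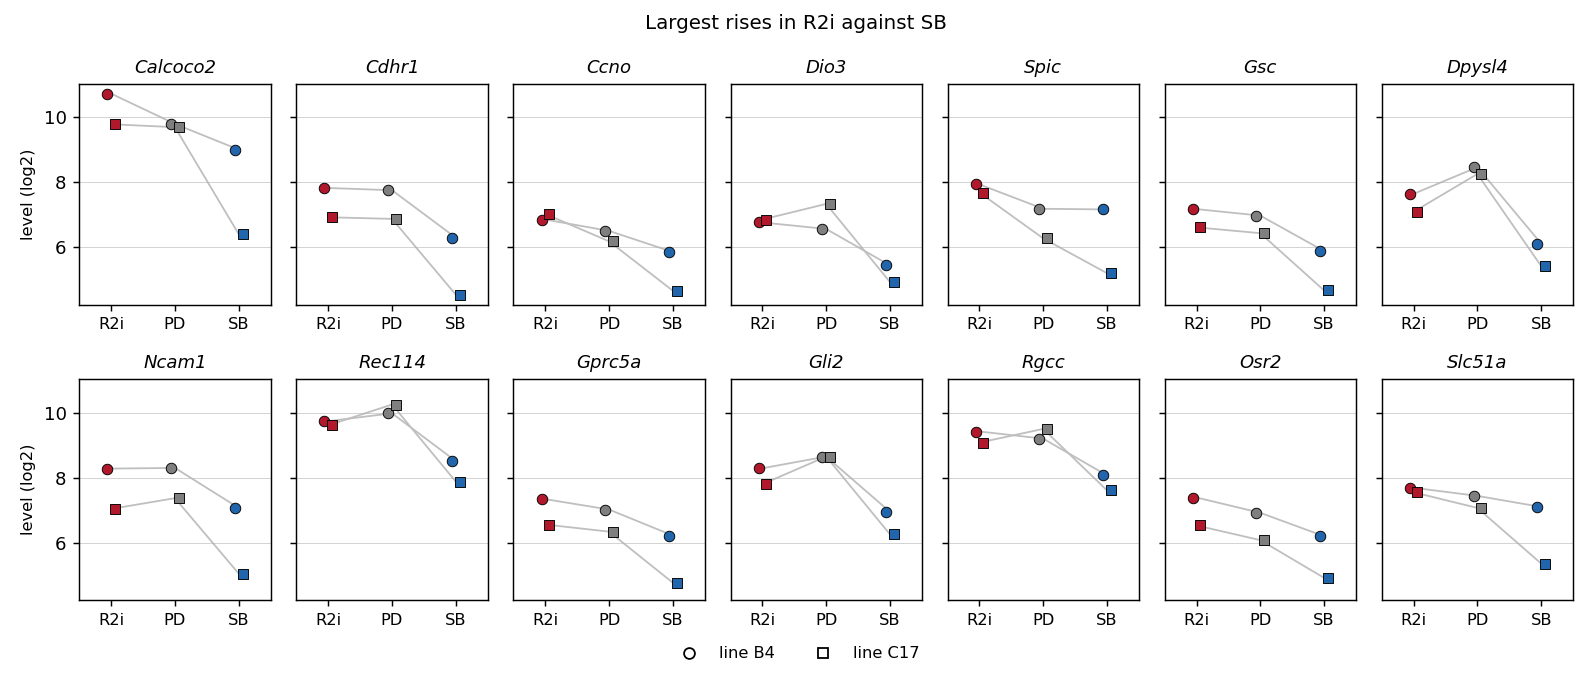
Level (log2, vertical axis) of the 14 genes with the largest rises on each array, with R2i left, PD alone in the middle and SB alone right. Circles are line B4, squares line C17, and grey lines join the arrays of 1 line. Calcoco2 sits at 10.73 and 9.79 in R2i, against 9.01 and 6.41 in SB alone. In each panel the C17 SB square is the lowest point, and it is not detected for Cdhr1, Ccno, Dio3, Gsc, Ncam1, Gprc5a and Osr2.

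Secreted and membrane inhibitors of Wnt signalling were among the rises. Of 8 measured Wnt targets 3 rose and 0 fell, beside 1.02% and 1.18% of all genes. Of the 22 listed 14 were not measured, and the list was not tested as a set. Notum, an enzyme that inactivates Wnt ligands, was at 8.20 in B4 and 7.79 in C17 in R2i, 8.32 and 7.97 in PD alone, and 7.42 and 6.20 in SB alone (1.19, SE 0.21, limma adjusted p = 0.020). Sfrp1, a secreted Wnt antagonist gene, was at 9.16 and 9.09 in R2i, 9.76 and 9.98 in PD alone, and 8.26 and 7.66 in SB alone (1.17, SE 0.19, adjusted p = 0.015). Apcdd1, another Wnt inhibitor gene, was at 6.72 and 5.28 in R2i, 5.97 and 4.93 in PD alone, and 5.49 and 4.59 in SB alone (0.96, SE 0.16, adjusted p = 0.019). Notum and Sfrp1 were separated from SB in both lines and Apcdd1 overlapped. The Apcdd1 call was lost without B4 R2i (adjusted p = 0.093), and those of Notum and Sfrp1 without C17 R2i or C17 SB (up to 0.13). Axin2, a direct readout of beta-catenin named after its values were seen, did not pass (adjusted p = 0.93).

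The naive and general pluripotency factors gave almost no calls. Of 23 measured naive genes 1 rose and 0 fell, with a median of 0.09 and changes of -1.07 to 0.84. Before adjustment, 8 of the 23 had a limma p below 0.05. Of 17 general pluripotency genes 0 passed in limma and 3 had an unadjusted p below 0.05, with changes of -0.50 to 0.28. Nanog was at 11.98 in B4 and 11.90 in C17 in R2i, 12.16 and 11.81 in PD alone, and 11.86 and 10.97 in SB alone (0.52, SE 0.19, limma adjusted p = 0.19). Nanog had 2 probes, with changes of 0.52 and 0.93, and changed by 0.73 with their mean (limma adjusted p = 0.074). Its C17 SB array was the low one, and without B4 SB it passed (0.86, adjusted p = 0.021). Pou5f1 changed by 0.02 (SE 0.15), Sox2 by -0.17 (SE 0.16), Klf4 by 0.10 (SE 0.15), Klf2 by 0.23 (SE 0.17), Esrrb by -0.01 (SE 0.14), Tfcp2l1 by -0.18 (SE 0.14), Tbx3 by 0.03 (SE 0.21) and Zfp42 (Rex1) by 0.17 (SE 0.15). None of these passed (adjusted p of 0.53 to 0.99), which leaves changes within about 2 standard errors unresolved in either direction. The naive gene that rose was Jam2, a junction adhesion gene, at 9.48 and 9.26 in R2i, 9.52 and 9.82 in PD alone, and 8.76 and 8.30 in SB alone (0.84, SE 0.18, adjusted p = 0.048). Jam2 had 4 probes with changes of 0.32 to 1.10, and lost the call without B4 R2i, C17 R2i or C17 SB. Prdm14 was detected on 1 array and was not tested.

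Genes of the next stage, the primed epiblast, split. Among 16 measured, Pou3f1 (Oct6), a factor of the primed state, fell and Zic2, a zinc finger gene of the epiblast, rose, and 14 did not pass. Pou3f1 was at 7.23 in B4 and 6.59 in C17 in R2i, 7.27 and 6.82 in PD alone, and 7.93 and 7.39 in SB alone (-0.75, SE 0.14, limma adjusted p = 0.026). Zic2 was not detected in SB alone and was at least 1.24-fold higher in R2i (adjusted p = 0.021). Otx2 was at 8.90 and 9.16 in R2i, 9.24 and 9.20 in PD alone, and 8.54 and 9.20 in SB alone (0.16, adjusted p = 0.70). Pou3f1 lost the call without B4 R2i (adjusted p = 0.062), and both genes lost it without C17 R2i or C17 SB. Fgf5 was detected on 1 array. In the DNA methylation machinery 1 of 13 measured genes rose: Gadd45b, a stress-induced demethylation factor, at 7.0 and 7.57 in R2i, 6.81 and 7.51 in PD alone, and 6.07 and 5.98 in SB alone (1.26, SE 0.19, adjusted p = 0.011). It lost the call without C17 R2i or C17 SB (adjusted p up to 0.074). The de novo methyltransferase gene Dnmt3b was at 12.79 and 12.70 in R2i, 12.50 and 11.90 in PD alone, and 13.09 and 12.56 in SB alone (-0.08, adjusted p = 0.86), its cofactor Dnmt3l changed by 0.07 (adjusted p = 0.88), and Dnmt3a was detected on no array.

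Targets of the Nodal, LIF and BMP pathways gave 1 call. Of 14 Nodal, Activin and TGF-beta targets 0 passed in limma and 7 had an unadjusted p below 0.05. For 18 LIF-STAT3 targets these counts were 0 and 6, and for all 11003 genes 242 and 1888. Among 10 BMP-SMAD1/5 targets Id3, an inhibitor of bHLH factors, fell: 6.28 in B4 and 6.10 in C17 in R2i, 5.50 and 5.08 in PD alone, 6.95 and 7.10 in SB alone (-0.84, SE 0.16, limma adjusted p = 0.032). Its call was lost without B4 R2i, C17 R2i or C17 SB (adjusted p up to 0.21). Id1 was at 6.11 and 6.65 in R2i, 5.84 and 5.55 in PD alone, and 7.30 and 10.42 in SB alone (-2.48, SE 0.58, adjusted p = 0.060). The ligand gene Bmp4 was at 8.06 and 7.61 in R2i, 6.67 and 5.64 in PD alone, and 8.88 and 10.10 in SB alone (-1.65, SE 0.39, adjusted p = 0.063). Both were lower on each R2i array than on each SB array, by more in C17 than in B4, and missed the threshold. With only the R2i and SB arrays in the fit both passed (adjusted p = 4.3e-05 for Id1 and 0.00024 for Bmp4), as they did without B4 SB (3.7e-06 and 2.4e-05), and Id1 passed with median scaling (0.049). Lefty1 and Lefty2, detected on no SB array, did not pass in limma (adjusted p = 0.26 and 0.19). Their folds over the mean of both R2i arrays, 1.99 and 2.01, are no lower bounds, since C17 R2i did not detect them either. B4 R2i was the only one of the 4 arrays that detected them, so without it no change was measured. With the R2i and SB arrays alone in the fit both passed (0.018 and 0.0044).

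**Figure D3:**
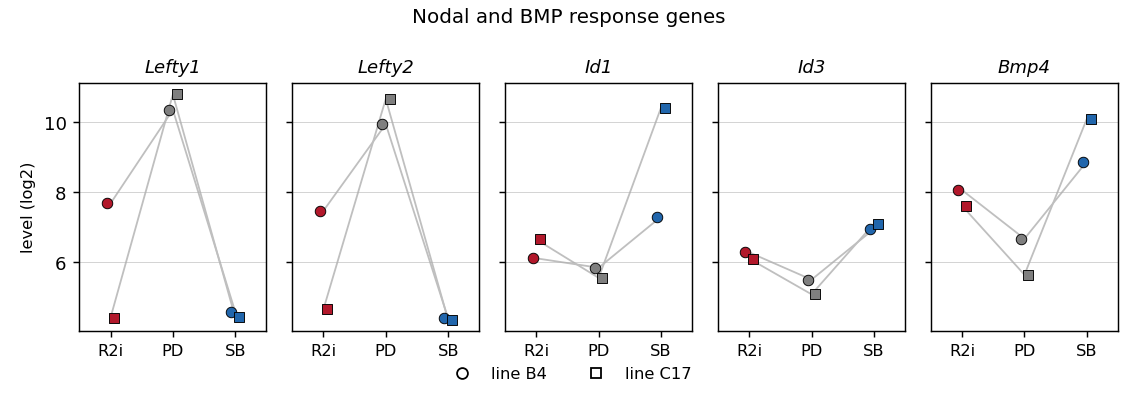
Level (log2, vertical axis) of 2 Nodal pathway genes and 3 BMP pathway genes on each array, with R2i left, PD alone in the middle and SB alone right. Circles are line B4, squares line C17, and grey lines join the arrays of 1 line. The B4 R2i circle of Lefty1 sits at 7.68, between PD alone (10.36 and 10.80) and SB alone (4.58 and 4.42), and the C17 SB square of Id1 at 10.42 above all others.

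Markers of other cell types were mostly not measurable. Of 26 primitive streak genes 4 were measured and 1 rose, Gsc. Among 25 primitive endoderm genes 11 were measured and 1 rose: Sparc, a matricellular gene, at 10.41 in B4 and 10.55 in C17 in R2i, 10.70 and 10.78 in PD alone, and 9.81 and 9.54 in SB alone (0.80, SE 0.15, limma adjusted p = 0.030). The defining genes Gata4, Gata6, Sox17 and Pdgfra did not pass the detection filter, and the summed linear signal of the 11 was 3249 to 3492 in R2i and 2638 to 2873 in SB alone. Of 22 trophoblast genes 14 were measured and Krt7 fell, with Cdx2 and Eomes not measured and sums of 5460 to 6181 in R2i and 5193 to 7722 in SB alone. Of 20 feeder fibroblast genes 6 were measured and Vim rose: 9.39 and 7.86 in R2i, 9.38 and 8.42 in PD alone, 8.41 and 6.64 in SB alone (1.10, SE 0.19, adjusted p = 0.020). The fibroblast collagen genes Col1a1, Col1a2 and Col3a1 did not pass the detection filter, and the sum of the 6 was 431 to 742 in R2i and 221 to 477 in SB alone. The part of other cells in these values was not tested. Sparc and Vim lost their calls without B4 R2i, C17 R2i or C17 SB (adjusted p up to 0.19).

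The lists of imprinted and germline genes had calls at single members. Of 17 measured genes on the imprinted list 1 fell, Peg10, a retrotransposon-derived gene. Dio3, given with the rises above, was not on that list. Peg10 was detected on both SB arrays and on no R2i array, and was at least 1.40-fold lower in R2i (limma adjusted p = 0.0075; 0.052 without C17 R2i). Of 10 germline genes 1 rose, the homeobox gene Rhox5, at 11.72 in B4 and 11.11 in C17 in R2i, 11.18 and 10.66 in PD alone, and 10.66 and 10.35 in SB alone (0.90, SE 0.15, adjusted p = 0.014). Rhox5 was higher on both R2i arrays than on both SB arrays and lost the call without either R2i array (adjusted p = 0.073 without B4 R2i).

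**Figure D4:**
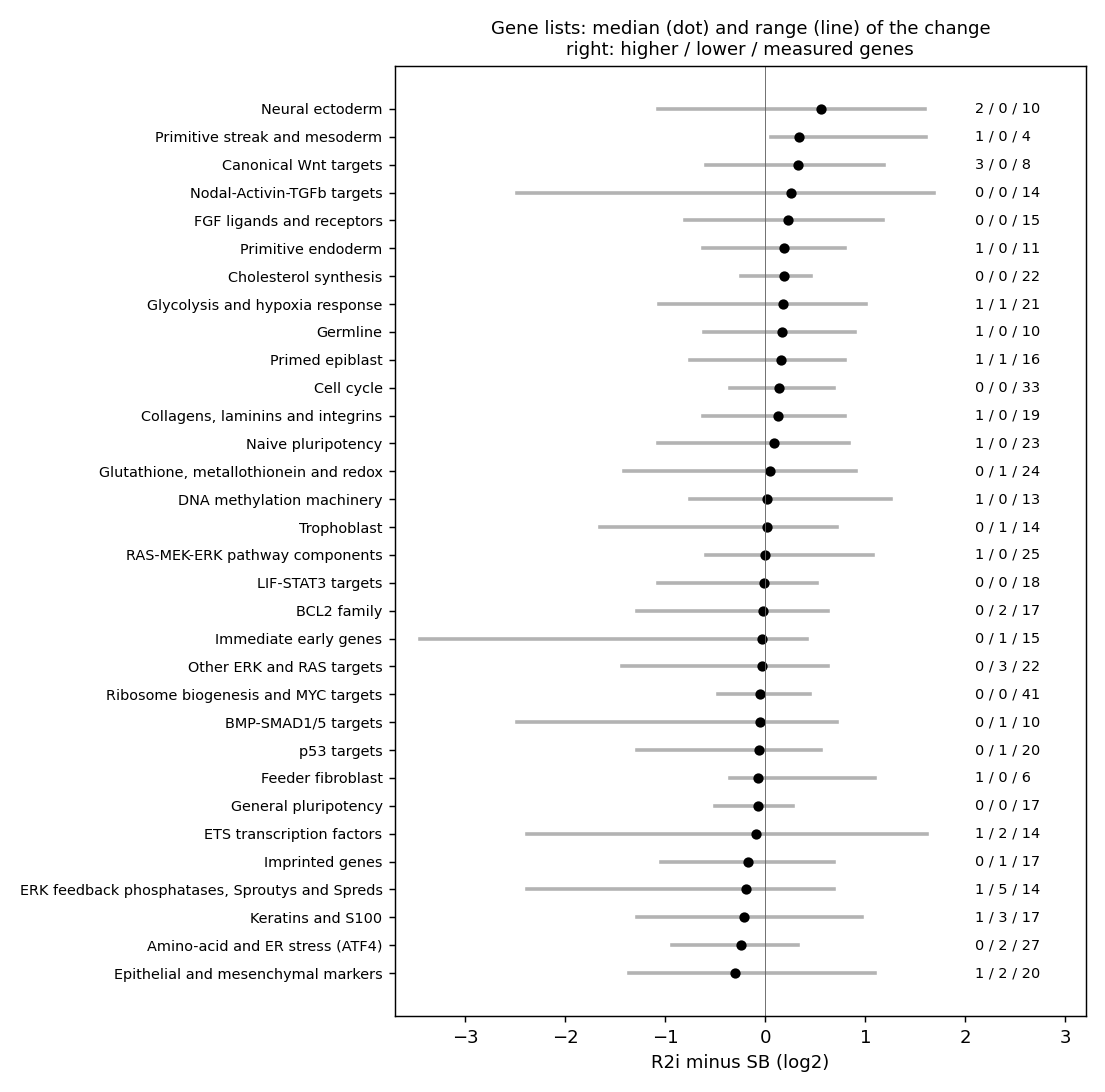
Change in R2i against SB alone (log2, horizontal axis) for the gene lists with at least 4 measured genes, with the MEK-ERK list shown by its component lists only. Dots are medians, grey lines run between the lowest and highest member, and the figures at the right give genes higher, lower and measured. Medians lie between -0.30 and 0.56, and the feedback genes of ERK had 1 higher and 5 lower of 14.

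PD alone and R2i were both set against the same SB arrays, so their changes share those arrays and are given side by side only. In PD alone 576 genes passed against SB alone, 306 higher (2.78%) and 270 lower (2.45%). Egr1 changed by -3.45 in R2i and -4.63 in PD alone, Dusp4 by -2.38 and -3.19, Dusp6 by -1.63 and -2.14, Spred1 by -1.37 and -1.74, and Etv4 by -2.38 and -2.69. The direct comparison of R2i with PD alone shares the R2i arrays. There 15 genes passed (0.136%), 4 higher and 11 lower, with Lefty1 and Lefty2 lowest (-4.54 and -4.25, limma adjusted p = 0.029 each). None of the MEK-ERK genes named above passed it. Dusp4 was nearest, at 0.81 above PD alone (adjusted p = 0.084), and Egr1 stood 1.18 above it (adjusted p = 0.26). How far these genes fell was therefore not shown to differ between R2i and PD alone.

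The lines differed in how far genes moved. Of the 92 genes with a 2-fold call 81 changed by more in C17 than in B4, 43 of the 45 rises and 38 of the 47 falls. In 13 of the 45 rises C17 SB was not detected, and in 6 of the 47 falls C17 R2i was not, so their C17 changes were taken against background. Among the 72 calls detected on all 4 R2i and SB arrays, 61 changed by more in C17, 30 of 32 rises and 31 of 40 falls. Over all 92 calls, those taken against background included, the median absolute change was 1.46 in C17 and 1.02 in B4. Over all 11003 genes the SD of the change was 0.39 in C17 and 0.31 in B4, so the wider spread held for all genes and not for the calls alone. Across genes, which are not independent replicates, the changes of the lines correlated at 0.40. With 1 array per line and medium, differences between the lines could not be tested. The largest was that of the smooth muscle actin gene Acta2, at 4.66 in B4 and 7.12 in C17 in R2i, against 6.23 and 5.31 in SB alone. Egr1 was one of the genes that fell further in B4 (-4.21) than in C17 (-2.70).

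**Figure D5:**
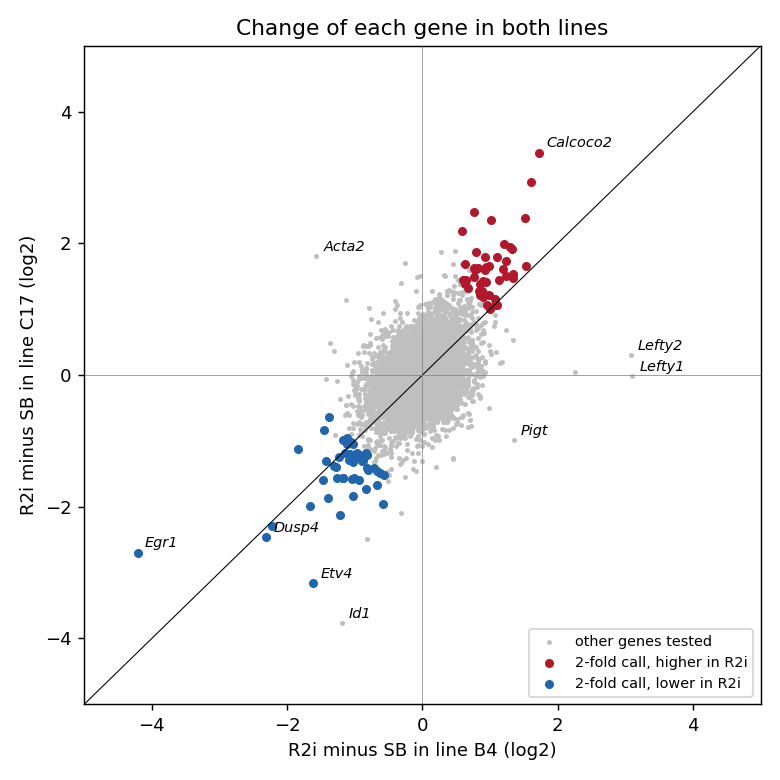
Change in R2i against SB alone (log2) in line B4 (horizontal axis) and line C17 (vertical axis), 1 point per gene, with 2-fold calls in red (higher) and blue (lower) and equal change on the diagonal. Of the 92 calls 81 lie on the C17 side. Lefty1 and Lefty2 lie far right, with C17 changes of -0.02 and 0.30 between arrays that did not detect them.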

How the data were processed

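Gene expression in lines B4 and C17 was measured on Illumina MouseWG-6 v2 bead arrays, 1 array per line and medium. Per the file headers, the deposited probe profiles hold mean bead signal intensity per probe, with no background subtraction and no normalisation. Each probe also has a deposited detection p-value, computed against that array's own negative controls. Normalised log2 values from the authors exist as well and served as an alternative. The median difference from them over the kept probes was 4.146 on each array. Per the submitters' processing notes, GenomeStudio and limma were used, and versions are not given in the sources used here.

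Intensities of the 6 arrays were background-corrected against 936 negative controls and quantile normalised with neqc (offset 16) in limma 3.58.1 under R 4.3.3. Probes with a detection p below 0.01 on at least 2 arrays were kept. Of 45281 probes, 29586 were named by gene identifier and 1044 by transcript accession through the RefSeq table of GRCm38.p6, and 14651 kept the symbol of the file. Several probes of a gene were reduced to the one with the highest mean, which left 11003 genes.

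Medium and line were fitted as additive terms over all 6 arrays (2 residual degrees of freedom, 7.96 prior degrees of freedom from eBayes). The Benjamini-Hochberg adjustment ran over all 11003 genes. The line pairs the arrays because each line was grown in every medium, as the titles name it. The differences between the lines correlated across genes at 0.65 (R2i and SB), 0.71 (R2i and PD) and 0.74 (PD and SB). Errors are moderated standard errors (SE).

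For a gene detected on no array of a medium, the fold is a lower bound, computed with each such array raised to its dimmest detected probe where it lay below it. Where an array of the other medium did not detect the gene either, as for Lefty1 and Lefty2, the fold is no bound. A summed signal of a marker list is the sum of its measured genes' linear values after the offset was taken off. The number of arrays limits the precision.

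Genes named are the 15 largest rises and 15 largest falls with a 2-fold call and the same direction in both lines (clone and predicted names left out), up to 5 passing members of each list, a fixed panel of ERK, pluripotency, methylation and lineage genes, and the 10 largest line differences. The comparison, gene lists and tests were chosen with earlier results of these data known. The fit was tested on simulated data. Alternatives were the 4 R2i and SB arrays alone, no line term, no background correction, the authors' log2 table, median scaling, no or a stricter detection filter, the mean of probes, another moderation, and each array left out.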

Additional observations from a re-analysis of the deposited data

Results flagged for a closer look

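The genes below, among those named, went in opposite directions in C17 and B4 when R2i was set against SB alone. With 1 array per line and medium the differences were not tested, and no cause was tested. Each value is the C17 change minus the B4 change, in log2. Acta2, of smooth muscle actin, differed by 3.38 (1.81 in C17, -1.57 in B4), and was detected on 1 of 2 R2i and 2 of 2 SB arrays. Pigt, of the GPI anchor transamidase, differed by -2.34 (-0.99 and 1.35), and its second probe changed by -0.04 over both lines. The scaffold gene Pdzk1 differed by 2.27 (1.14 and -1.13), Ms4a10 by 1.95 (1.70 and -0.25), the imprinted RNA H19 by 1.85 (0.48 and -1.37) and the prolactin receptor gene Prlr by 1.81 (1.02 and -0.79). For Lefty1 the difference was -3.11 (-0.02 and 3.10), but neither C17 array nor B4 SB detected it, so no direction was measured in C17 and the size is not exact.

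Pluripotency and methylation genes differed by less: Tbx3 by -0.97 (-0.46 in C17, 0.51 in B4), Klf2 by 0.59 (0.53 and -0.06), Dnmt3l by 0.55 (0.34 and -0.21), Dnmt3b by 0.44 (0.14 and -0.30), Otx2 by -0.40 (-0.04 and 0.36), Zfp42 by -0.37 (-0.02 and 0.36), Pou5f1 by -0.33 (-0.14 and 0.19), Etv5 by -0.32 (-0.02 and 0.30) and Esrrb by 0.05 (0.02 and -0.03).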

How the results depend on the processing

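The 56 named genes that passed kept their direction under all 15 alternatives (38 of them have a value with detection on all 6 arrays), and the 17 that passed with any 1 of the 6 arrays left out were Egr1, Dusp4, Dusp6, Spry4, Spred1, Slc40a1, Snai3, Ap1m2, Gpnmb, Gpx2, Rab15, Cdhr1, Gsc, Dpysl4, Gli2, Rgcc and Osr2. With single arrays left out, 46 to 565 genes passed, 46 to 234 had 2-fold calls, 18 to 129 higher and 28 to 105 lower, and 5 to 11 MEK-ERK genes fell. The lowest of each came without C17 R2i and the highest of the gene counts without B4 SB. Without B4 R2i there were 117 2-fold calls, 74 of them among the 92. Leaving out either PD array gave the counts of the 4 R2i and SB arrays alone (408 passing), since the single PD array left then has its own term. With no replicate block for the line, 0 genes passed in limma, 0 had 2-fold calls (0 higher, 0 lower) and 0 MEK-ERK genes fell, while 434 genes and 11 MEK-ERK falls had an unadjusted p below 0.05. With no detection filter (30942 genes tested) these counts were 0, 0, 0, 0 and 0 in limma, while 3321 genes and 25 MEK-ERK falls had an unadjusted p below 0.05. The prior degrees of freedom were 3.58 and 2.81 in those fits. Without background correction 111 passed and 15 had 2-fold calls (5 higher, 10 lower), all 15 among the 92, and 6 MEK-ERK genes fell. With detection required on all 6 arrays 6 MEK-ERK genes fell, since fewer genes were tested. Trended, robust moderation gave 405 passing genes. Of the 56 named genes, 7 lost the call with that moderation (Calcoco2, its older entry Ndp52, Egr1, Etv4, Krt7, Slc51a and Spic), 2 with the authors' log2 table (Krt7 and Slc51a) and 1 with median scaling (Dusp1). With the mean of probes 8 lost it, namely Bcl2l11, Cebpb, Ddit3, Jam2, Krt7, Pdk1, Slc51a and Spic. Without background correction 19 lost it, among them Etv4, Phlda1, Pmaip1 and Bcl2l11 of the MEK-ERK list. Calls were also gained: Id1, Bmp4, Lefty1 and Lefty2 passed with the 4 R2i and SB arrays alone, Nanog, Ms4a10 and Prlr without B4 SB, and H19 without C17 SB. For the other changes of counts the cause was not tested. Pdzk1, at 0.00 with all arrays, passed at -1.09 without C17 SB and at 1.10 without B4 SB. On dim arrays with 2 values a medium, genes near background, such as Spry4 and Phlda1, carry compressed changes.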

Other observations

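The same probes of several fallen genes were read on the arrays of lines B18 and B20; no SB array of these lines was used here. Egr1, Dusp4, Etv4, Spry4, Spred1 and Dusp6 were each detected on 6 of 6 R2i arrays, 6 of 6 PD arrays and 4 of 4 2i arrays (PD with the GSK3 inhibitor CHIR99021). Slc40a1 was detected on 1 of 6 R2i arrays, 0 of 6 PD arrays and 0 of 4 2i arrays, and on both SB arrays of B4 and C17 but none of their R2i or PD arrays. Of the risers, Cdhr1 was detected on 3 of 6 R2i arrays and Ccno on 1 of 6, while Gsc, Dpysl4 and Rgcc were detected on all 6.

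Among the genes that passed in R2i against PD alone, Sox21, a neural transcription factor gene chosen after its values were seen, was at 10.03 in B4 and 9.53 in C17 in R2i, against 8.80 and 8.13 in PD alone. The difference was 1.32 (SE 0.15, limma adjusted p = 0.015). In SB alone Sox21 was at 10.09 and 9.15.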
